A study of Homo sapiens with 9 samples.

Results

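The data described here are the 3 arrays of H2009 control cells, out of 9 arrays in the study. They give the level of 23931 genes in these control cells. H2009 is an established cell line grown from a human lung adenocarcinoma, a cancer of the gland-forming epithelium of the distal lung. All cells of the study carried CRISPRa, in which a Cas9 protein that cannot cut DNA is fused to the activator domains VP64, p65 and Rta (VPR). The control cells had received the empty sgRNA vector, so nothing directed the activator to a site. The other 6 arrays, 3 each, came from H2009 clones holding sgRNA-A or sgRNA-B against the microRNAs of 14q32, and they were not used. Cells received no treatment and grew in DMEM with 10% FBS and 10 µg/ml blasticidin. The labels describe the 3 arrays as biological replicates of 1 cell clone per group, so their spread is that between cultures, and it does not cover differences between clones. All RNA samples had an integrity number of 10, per the labels.

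Levels are in log2 units, on which equal steps are equal ratios of array signal. Each gene was represented by 1 probe set, a group of short DNA probes that bind its transcript. The signal of a probe set depends on the binding of its probes as well as on the amount of RNA. The order of genes given here is therefore an order of array signal. Genes with near-identical copies, among them clustered histones, tubulins, HLA-B and HLA-C, the MAGEA and CT45 genes and SFTPA1 and SFTPA2, may share signal between copies, and their values are uncertain in that respect. The arrays share the same distribution of values, with a median of 4.91 and a range of 3.38 to 13.82 on each, and Pearson correlations between pairs of control arrays over the genes were 0.998.

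Signal does not reach 0 on such arrays, and a reference for silent genes is needed. Olfactory receptors are G protein-coupled receptors used by sensory neurons of the nose to detect odours, and each such neuron expresses very few of them. The reference comprised the 375 genes whose symbols hold OR, 1 or 2 digits and a letter. Of these, 264 have exactly 1 digit and 23 are not annotated as protein-coding. Their median was 3.77, 3.76 and 3.76 on the 3 control arrays. The 95th percentile of these genes, called the silent level below, was 4.54 on replicate 1, 4.47 on replicate 2 and 4.58 on replicate 3. A gene is called above the silent level when it exceeded this value on each of the 3 arrays.

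By this rule 12880 of 23931 genes, or 53.8%, lay above the silent level, and 9979 lay above it on no array. The remaining 1072 exceeded it on 1 or 2 arrays. The genes above had a median of 7.82 and the others a median of 3.92. Over all genes the median was 4.90, the upper quartile began at 8.03, and 1958 genes exceeded 10. Protein-coding genes were above in 64.6% of cases, with a median of 6.10, which is the background for the gene lists that follow. The 3 genes just above the mean silent level were CAMK2N2, LNROP and FRRS1L and the 3 just below it GPR45, IKBKB-DT and MIR105-1. All 6 had a mean of 4.53, and each exceeded the level on 1 array apart from GPR45, which did so on 2.

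Single members of the reference went against its pattern. OR4C3 measured 9.18, 8.65 and 8.82 on replicates 1 to 3, which places it within the highest 17.2% of all genes. OR2T12 followed at 6.41, 6.62 and 6.54, then OR10A5 at a mean of 5.70, OR51S1 at 5.52, OR2L1P at 5.50 and OR2A1 at 5.43. In all, 15 of 375 receptors lay above the silent level and only OR4C3 exceeded 7. Other families restricted to single organs gave a further view of silent genes. None of 23 bitter taste receptors lay above, nor did most of 27 keratin-associated and hair keratin genes (4 above), 22 lens and retina genes (2), 20 sperm and egg genes (2) and 22 defensins and vomeronasal receptors (1). Together 9 of 114 such genes were above, with a median of 3.86. The exceptions were led by DEFB108B at 6.93, the sperm packaging gene PRM2 at 6.20, KRTAP5-1 at 6.11 and the egg coat gene ZP3 at 6.11. Without replicate 3, 2 of the 22 defensins and vomeronasal receptors were above.

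The reverse also occurred. Ribosomal proteins build the ribosome in every cell, and 50 of the 51 measured lay above the silent level, of 78 listed. Their median was 9.26 and they spanned 4.42 to 13.74. RPL13A was the exception at 4.41, 4.44 and 4.40, and RPS3A at 4.85 and RPL3 at 4.87 came close to it. The tubulin genes TUBA1A and TUBA1C measured 3.73 and 4.09, against 7.44 for TUBA1B and 13.78 for TUBB4B. A signal near the silent level is accordingly no statement that a transcript is absent, and a signal above it no proof of the named transcript; what sets these probe sets apart was not tested.

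SNORD68, a small nucleolar RNA that guides methylation of ribosomal RNA, had the highest mean level at 13.79 ± 0.04 (SD, n = 3). It was followed by the tubulin TUBB4B at 13.78, the ribosomal proteins RPL5 at 13.74 and RPL24 at 13.70, and RMRP, the RNA of a ribosomal RNA processing enzyme, at 13.69. The next places went to RPS21 at 13.58, the histones H3C11 at 13.56 and H2AC20 at 13.51, the annexin partner S100A10 at 13.51 and the chaperone HSPA8 at 13.47. Also among the highest 25 were the nucleolar protein NCL and the endoplasmic reticulum chaperone HSP90B1, both at 13.35, the actin ACTG1 at 13.35, the thymosins TMSB4X at 13.30 and TMSB10, and MAL2, an apical transport protein of epithelia, at 13.14. Of the 25, 20 were protein-coding and 3 were small nucleolar RNAs. These places are close: between neighbours in the order, ranges over the 3 arrays overlapped in 23 of 25 pairs, the pair below the last place included. H3C11 measured 13.56 on each of the 3 arrays and NCL 13.35 on each. Arrays given a common distribution return the same value for a gene that holds the same rank on all of them, so an SD of 0.00 there is no measure of precision.

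Genes that define lung adenocarcinoma were mostly high, while the secreted products of alveolar cells were not. Of 13 identity genes, 11 lay above the silent level, with a median of 9.18. The cell adhesion molecules CDH1 and EPCAM were highest. CDH1, the cadherin that joins epithelial cells, measured 12.84, 12.80 and 12.87. EPCAM, the epithelial cell adhesion molecule, measured 12.82, 12.84 and 12.82. The ranges of both overlapped, and they ranked 44 and 45 of all genes. CEACAM6, a carcinoembryonic antigen relative, and KRT7, a keratin of simple epithelia, followed at 11.79 each. The tight junction claudins CLDN4 and CLDN3 measured 11.03 and 8.57, and the cell surface mucin MUC1 measured 9.18.

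NKX2-1 is the transcription factor that specifies lung epithelium and is used to diagnose lung adenocarcinoma. It measured 9.45, 9.43 and 9.44, within the highest 12.4% of genes. Its neighbour in the genome, SFTA3, measured 8.46, 8.44 and 8.26. The pioneer factors FOXA1 and FOXA2, which open chromatin at endoderm genes, measured 8.89 ± 0.07 and 7.03 ± 0.19. By contrast SFTPB, a surfactant protein, measured 4.32, 4.37 and 4.36, and NAPSA, an aspartic protease that processes surfactant, 4.15, 4.44 and 4.32. Both lay below the silent level on all arrays. The label of a lung adenocarcinoma line thus had its epithelial and transcription factor markers high, with these 2 defining secretory markers not above silent genes.

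Promoter sequences are shown for genes from both ends of this order. They are the 250 bases before the annotated start of each gene in RefSeq's annotation of GRCh38.p14, written in the direction of transcription with each CG dinucleotide in capitals. CG dinucleotides are the sites of DNA methylation in mammals, and promoters rich in them are known as CpG islands. The genes were chosen after their levels were seen, to set high and low genes side by side: a chaperone, 2 transcription factors, an antigen, the surfactant protein and protease below the silent level, and the olfactory receptor with the highest signal.
HSPA8 (chr11:123062137-123062386, minus strand): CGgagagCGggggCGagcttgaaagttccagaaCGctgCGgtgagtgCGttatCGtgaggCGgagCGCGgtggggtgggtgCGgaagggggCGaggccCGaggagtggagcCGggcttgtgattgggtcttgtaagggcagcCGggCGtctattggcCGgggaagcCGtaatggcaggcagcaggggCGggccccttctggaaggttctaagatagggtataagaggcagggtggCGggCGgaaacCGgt
NKX2-1 (chr14:36520233-36520482, minus strand): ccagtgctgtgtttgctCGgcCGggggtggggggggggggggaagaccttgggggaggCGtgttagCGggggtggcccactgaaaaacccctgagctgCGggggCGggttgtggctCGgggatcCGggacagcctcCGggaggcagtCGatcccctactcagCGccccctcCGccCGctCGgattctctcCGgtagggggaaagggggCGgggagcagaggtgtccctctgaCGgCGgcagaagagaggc
ELF3 (chr1:202010337-202010586, plus strand): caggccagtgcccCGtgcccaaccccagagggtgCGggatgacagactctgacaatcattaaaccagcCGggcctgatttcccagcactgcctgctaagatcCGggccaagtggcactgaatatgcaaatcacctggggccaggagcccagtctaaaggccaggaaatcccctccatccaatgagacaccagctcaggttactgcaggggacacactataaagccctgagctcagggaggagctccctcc
CEACAM5 (chr19:41708376-41708625, plus strand): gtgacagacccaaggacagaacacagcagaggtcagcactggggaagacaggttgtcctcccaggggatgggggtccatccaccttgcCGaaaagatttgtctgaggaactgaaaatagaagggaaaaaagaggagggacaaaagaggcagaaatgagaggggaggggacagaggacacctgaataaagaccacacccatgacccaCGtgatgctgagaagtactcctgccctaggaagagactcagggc
SFTPB (chr2:85668742-85668991, minus strand): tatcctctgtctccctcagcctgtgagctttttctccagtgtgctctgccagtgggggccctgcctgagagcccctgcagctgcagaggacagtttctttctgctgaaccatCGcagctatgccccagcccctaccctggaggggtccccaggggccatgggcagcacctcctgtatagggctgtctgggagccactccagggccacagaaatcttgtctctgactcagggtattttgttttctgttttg
NAPSA (chr19:50369303-50369552, minus strand): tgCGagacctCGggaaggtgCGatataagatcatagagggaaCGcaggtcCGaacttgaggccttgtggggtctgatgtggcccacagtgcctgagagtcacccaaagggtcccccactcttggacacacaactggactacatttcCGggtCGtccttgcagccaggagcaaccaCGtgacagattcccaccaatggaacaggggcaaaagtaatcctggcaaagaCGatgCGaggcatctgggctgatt
OR4C3 (chr11:48324670-48324919, plus strand): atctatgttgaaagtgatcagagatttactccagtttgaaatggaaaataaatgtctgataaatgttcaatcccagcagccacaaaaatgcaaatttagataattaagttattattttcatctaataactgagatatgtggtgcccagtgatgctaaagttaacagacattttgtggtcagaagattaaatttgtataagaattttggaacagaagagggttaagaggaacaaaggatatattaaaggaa

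HSPA8, with a level of 13.47, had 22 CG dinucleotides in this window, and NKX2-1 had 18. ELF3, an epithelial transcription factor with a level of 9.13, had 4, and a TATAAA match that begins 34 bases before the start (position -34). TATAAA is the core of the TATA box, which positions RNA polymerase II. CEACAM5 had 2 at a level of 11.05, SFTPB had 1 at 4.35, NAPSA had 10 at 4.30, and OR4C3 had 0 at 8.89. Among these genes the number of CG dinucleotides did not follow the level: NAPSA, below the silent level, had more than ELF3, CEACAM5 and OR4C3.

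Across all protein-coding genes the composition changed with the level. A promoter of 300 bases, 250 before and 50 after the start, was given for 14458 of the 17753 protein-coding genes. The ratio of observed to expected CG dinucleotides had a median of 0.88 in the 10% of genes with the highest levels and 0.25 in the lowest 10%. The median GC content was 65.7% in the highest 10% and 45.7% in the lowest. The share of genes above the silent level was 23.5% where the ratio was at most 0.25, 40.6% from 0.25 to 0.5, 69.2% from 0.5 to 0.75 and 83.6% over 0.75. The 286 olfactory receptors in the table had a median ratio of 0.12.

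Both strands were searched for 3 short motifs, none of which holds another. TATAAA was found in 9.31% of all these promoters, in 5.80% of those of genes above the silent level and in 16.2% of the others. It was found in 24.2% of the lowest 10% and 33.6% of olfactory receptors. At the place of a TATA box, on the coding strand and beginning 40 to 20 bases before the start, it was found in 3.55% of all promoters, 8.86% of the lowest 10% and 1.75% of olfactory receptors. The 100 highest of the protein-coding genes with a promoter sequence had it in 22% of promoters, against 6.29% of the highest 10% as a whole. At that place they had it in 13% against 2.42%, the histones H2AC20, H1-4, H2AC13, H4C13 and H2AC6 among them. GGGCGG, the core of a GC box, was found in 59.8% of all promoters, in 74.6% of the highest 10% and in 23.7% of the lowest. CCAAT was found in 36.4% of all, 40.2% of the highest and 39.7% of the lowest 10%, with a minimum of 31.9% in the eighth of the 10 groups, so its share was lower in the middle of the order than at its ends. These shares are a description: AT-rich sequence holds TATAAA and GC-rich sequence GGGCGG more often, and that part was not tested.

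Transcription factors of the lung and foregut were above the silent level in 18 of 24 measured cases, with a median of 6.80. EHF, an ETS factor of epithelia, led at 10.48 ± 0.04. SOX9, which marks the distal tips of the developing lung, measured 9.57, and KLF5, a factor of epithelial growth, 9.48. The lowest were IRX2 at 3.99, the mesodermal factor TBX5 at 3.85 and ELF5 at 3.80.

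Markers of the mature alveolus were above the silent level only in part. Alveolar type II cells make surfactant and renew the alveolus, and 5 of 17 of their markers were above the silent level, fewer than the 64.6% of protein-coding genes. LPCAT1, an enzyme of surfactant lipid synthesis that other cells also use, measured 11.32, and the ETS factor ETV5 5.65. SFTPC, the surfactant protein found in type II cells alone, measured 5.16, 5.07 and 5.16. The lipid transporter of lamellar bodies, ABCA3, measured 4.94, 4.89 and 4.82. Both were above the silent level by a narrow margin, and at the 99th percentile of olfactory receptors (5.49 to 5.53) neither was; 3 of the 17 markers were. SFTPA2 and SFTPA1, named after their values were seen, measured 4.41 and 3.91 and were not above on any array. Alveolar type I cells are the flat cells of gas exchange. Of 9 of their markers, 6 were above, or 66.7%, which is near the 64.6% of protein-coding genes. At the 99th percentile of olfactory receptors 4 were above. The 6 were GPRC5A at 11.81, CAV1, the coat protein of caveolae, at 11.38, EMP2 at 10.78, RTKN2 at 7.43, AGER at 5.05 and the water channel AQP5 at 4.68. PDPN, HOPX and CLIC5 measured 4.39, 4.02 and 3.67.

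Of 12 club and secretory cell markers, 3 were above: WFDC2, a secreted protease inhibitor family protein, at 11.52, the iron-binding lipocalin LCN2 at 7.99 and the trefoil peptide TFF3 at 5.83. SCGB1A1, the club cell secretoglobin, measured 4.40, 4.60 and 4.41 and passed on 1 array. Ciliated cells had 4 of 12 markers above: CAPS at 7.95, the dynein DNAH5 at 6.84, their master regulator FOXJ1 at 5.46 and TPPP3 at 5.38. Basal and squamous markers reached 8 of 12, led by SOX15 at 8.35 and S100A2 at 8.27. The basal keratin KRT5 and the desmoglein DSG3 measured 3.94 and 3.82. Of 12 neuroendocrine markers, 3 were above: the deubiquitinase UCHL1 at 10.46, the peptide GRP at 6.01 and the factor INSM1 at 5.12. Gastrointestinal and hepatic markers were above in 6 of 16 cases, the highest at 5.26, and in 0 at the 99th percentile of olfactory receptors. At that percentile 5 of the basal and squamous and 2 of the ciliated cell markers were above.

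Over 6 lists for T and NK cells, B cells, macrophages, endothelium, fibroblasts and erythroid cells, which a pure culture should lack, 15 of 59 markers were above the silent level, or 25.4%, with a median of 4.08. At the 99th percentile of olfactory receptors 4 were above, and 0 of the T and NK and of the endothelial markers. PTPRC, the pan-leukocyte phosphatase CD45, measured 3.62, CD3E of the T cell receptor complex 3.71, PECAM1 of endothelium 3.85 and the fibroblast proteoglycan DCN 3.58. The highest were CD68, a lysosomal protein of macrophages, at 8.46, the B cell receptor chain CD79A at 6.64, COL1A1 at 6.30 and the haemoglobin gene HBA1 at 6.04. CD68 was the only one over 7. Neuronal and muscle markers were above in 7 of 12 cases, led by myoglobin, MB, at 7.21, with the others at or below 5.10, and MB alone was above at the 99th percentile.

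All 20 adhesion and junction genes measured were above the silent level, with a median of 9.52, led by CDH1, EPCAM and the claudin CLDN7 at 11.94. CLDN18, a claudin of lung and stomach, measured 4.71, 4.65 and 4.58 and CLDN1 4.74, 4.48 and 4.72, the lowest of the list. Of 7 simple epithelial keratins, 5 were above. KRT19 measured 13.02, 12.93 and 13.13, KRT7 11.79 and KRT18 11.41. KRT8, the pairing partner of KRT18 in filaments, measured 7.63, 7.61 and 7.28. KRT23 and the intestinal KRT20 measured 3.98 and 3.79. Epithelial splicing and transcription factors were above in 10 of 11 cases. ESRP1, which keeps epithelial splice forms, measured 11.22, 11.23 and 11.25, and ESRP2 measured 9.80. The exception was GRHL3 at 4.30.

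Genes linked to the mesenchymal transition were mixed. This is the programme in which epithelial cells loosen contacts and become motile. Of 15 genes, 11 were above the silent level, and the 4 others included defining factors. The matrix protein TGFBI measured 12.27, 12.24 and 12.21. SNAI2, a repressor of CDH1, measured 10.90, 10.85 and 10.92, and the receptor AXL 10.82. Fibronectin, FN1, measured 9.88, the integrin ITGA5 9.12 and vimentin, VIM, 8.99. The repressors ZEB1 and ZEB2 measured 4.20 and 4.09, N-cadherin, CDH2, 4.39, and none exceeded the silent level on any array. CDH1 and SNAI2 were thus both in the highest 3.6% of genes while ZEB1 and ZEB2 ranked among silent genes.

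Carcinoembryonic antigens, antibody drug targets and cancer-testis antigens were together above in 26 of 53 cases, or 49.1%. Their median was 4.50, and the lists differed. The carcinoembryonic antigen family had 4 of 12 members above: CEACAM6, CEACAM5 at 11.07, 11.06 and 11.01, CEACAM1 at 8.76 and CEACAM19 at 5.42. CEACAM3 and CEACAM8, members of granulocytes, measured 3.63 each. Of 15 mucins, 6 were above, led by MUC1, MUC16 at 8.67 and MUC4 at 8.60. The gel-forming mucin MUC5AC measured 5.09, 4.77 and 5.15. At the 99th percentile of olfactory receptors 3 mucins were above. Among 21 antigens used for antibody drugs, 17 were above. Tissue factor, F3, the starter of coagulation, measured 12.56, 12.53 and 12.56, and the transferrin receptor TFRC 11.99. CD274, the checkpoint ligand PD-L1, measured 9.76, 9.66 and 9.75. Cancer-testis antigens, which are normally restricted to germ cells, had 7 of 22 above, a share lower than the background, and 4 at the 99th percentile. CT45A1 stood out at 8.96, 9.01 and 9.21, and MAGEA6, PRAME and MAGEA12 measured 6.86, 6.73 and 6.51.

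Growth factor receptors and ligands of the ERBB, MET and related families were measured next. Receptors were above in 16 of 29 cases with a median of 5.65. MET, the receptor for hepatocyte growth factor, led at 11.62, 11.63 and 11.59. AXL followed at 10.82, EPHA2 at 10.17, EGFR at 10.07, 10.07 and 10.15, DDR1 at 9.38 and ERBB2 at 9.33, 9.24 and 9.32. The rearranged oncogenes of other lung cancers, ALK, RET and ROS1, measured 4.26, 4.15 and 4.11 and were not above on any array. These 3 were named after their values were seen.

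Of 23 ligands, 10 were above, and 6 at the 99th percentile of olfactory receptors. The EGFR ligands EREG, TGFA and HBEGF measured 10.01, 8.97 and 8.16. EGF itself was above by a narrow margin at 5.08, 4.63 and 4.69, and BTC, at 4.81, 4.77 and 4.56, passed on 2 arrays. VEGFA, which drives vessel growth, measured 9.40 on each array. PDGFB and FGF2 measured 7.69 and 7.29. HGF, the ligand of MET, measured 3.65, 3.68 and 3.70, below the median of olfactory receptors on each array. The control cells thus showed signal above silent genes for EGFR and several of its ligands, and for MET without signal for HGF above silent genes.

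Downstream, the RAS pathway relays receptor signals to the nucleus. All 22 measured members were above the silent level, with a median of 9.01. The phosphatase PTPN11 measured 11.36, the adaptors SHC1 and GRB2 11.06 and 11.05, and the pathway's transcriptional targets FOSL1, PHLDA1 and DUSP6 11.15, 10.95 and 10.37. The 14 tumour suppressors measured were also all above. SMARCA4, the motor of a chromatin remodelling complex that some lung cancers lose, measured 10.06, 10.10 and 10.16. The median of the list was 7.81. Its lowest members all restrain the cell cycle: CDKN2A at 6.29, 6.42 and 6.55, RB1 at 6.38, CDKN1A at 5.71 and CDKN2B at 5.33. Inhibitors outside the list measured 8.73 for CDKN1B and 7.37 for CDKN2D. A further inhibitor, CDKN1C, went the other way: it lay 1.72 log2 units above the silent level, less than CDKN2A at 1.89. Array signal does not report mutations, and none were read here.

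The BCL2 family and the caspases, which hold both protectors from and executors of apoptosis, were above in 17 of 24 cases, or 70.8%. The protectors BCL2L1 and MCL1 measured 10.39 and 10.15, and CASP2 and BID, which promote cell death, 10.11 and 10.03. BCL2 itself measured 3.78, 3.73 and 3.81, and CASP1, the inflammatory caspase, 3.96.

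All 24 replication and mitosis genes were above, with a median of 10.69 and none under 7.79. TOP2A, which untangles DNA, measured 12.20, 12.17 and 12.20, and the proliferation marker MKI67 12.06, 12.01 and 12.05. The reductase RRM2 and the kinase PLK1 measured 11.72 and 11.55. Of 24 cyclins and cyclin-dependent kinases, 22 were above, led by CDK4 at 11.82 and the S-phase cyclin CCNA2 at 10.82. The cyclins CCND2 and CCNA1, the second one of the testis, measured 4.33 and 4.09.

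All 15 translation factors were above, with a median of 10.19, led by the elongation factors EEF1G at 13.15 and EEF2 at 12.82. Proteasome and chaperone genes were above in 22 of 26 cases. HSPA8, the constitutive heat shock protein, and HSP90B1 led them, followed by the mitochondrial chaperone HSPA9 at 12.72. PSMB11, a proteasome subunit of the thymus, measured 3.90. Of 22 actins, tubulins and their paralogues 11 were above, with 3 over 13: TUBB4B, ACTG1 and TUBB. The cardiac actin ACTC1 measured 3.61, 3.51 and 3.52, near the lowest values on the arrays. Core histone variants and linker histones were above in 9 of 14 cases, led by the linker histone H1-4 at 12.92 and the variant H2AZ1 at 12.11. Their share of 64.3% was near the background. Among germline members, the testis histone H2AB1 at 8.19 and the oocyte histone H1-8 at 5.26 were above. The 5 members of the list not above included the testis histones H1-7 and H1-6 at 3.99 and 3.80. The others were H3-4, H2BW1 and H3-5, at -0.68, -0.79 and -0.85 log2 units from the silent level.

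Glycolysis enzymes were above in 19 of 27 cases. ENO1 and PKM measured 12.41 each, the glucose transporter SLC2A1 11.89 and GPI 11.87. PGK1 measured 11.68 ± 0.02, while its testis paralogue PGK2 measured 3.72 ± 0.02. The testis lactate dehydrogenase LDHC was above at 5.86 and the muscle enzyme PGAM2 at 4.84. GAPDH, often used as a reference gene, measured 8.03 and ranked 5992 of all genes. Respiratory chain subunits were above in 26 of 27 cases, and the exception was the muscle subunit COX7A1 at 4.02. Other forms of restricted tissues were above: the testis subunits COX8C at 8.41 and COX6B2 at 6.06, 6.03 and 5.90, COX4I2 at 4.84 and the muscle subunit COX6A2 at 4.76. Low signal was thus not shared by all such forms.

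NRF2 is the transcription factor of the antioxidant response. Of 24 genes of its targets and of glutathione metabolism, 20 were above. TALDO1 of the pentose phosphate pathway measured 12.33, the quinone reductase NQO1 12.30, 12.40 and 12.29 and the thioredoxin reductase TXNRD1 12.15. AKR1C2 and GPX2 measured 3.69 and 4.21. Aldehyde dehydrogenases and cytochromes P450 were above in 15 of 25 cases, led by ALDH1A3 at 10.43. ALDH1A1, used as a stem cell marker in other settings, measured 3.64, and the liver enzyme CYP3A4 3.67, with replicate 1 at 3.86 and the others at 3.57 and 3.58.

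Immune genes were above in 62 of 110 cases, or 56.4%. All 15 MHC class I presentation genes were above the silent level. The loading chaperone CALR measured 12.56, B2M, the light chain of class I molecules, 12.23, HLA-C 12.18 and HLA-B 12.08. MHC class II genes were above in 4 of 10 cases, and in 1 at the 99th percentile of olfactory receptors. The invariant chain CD74 led at 7.74, 7.75 and 7.92, while HLA-DRA measured 3.65, 3.73 and 3.75. Among 27 innate sensors and interferon signalling genes 17 were above, with JAK1 at 11.05, the DNA sensing pair STING1 and CGAS at 9.54 and 9.16, and the endosomal receptor TLR7 at 3.63. Of 33 cytokines and chemokines, 13 were above, led by MIF at 12.42, TGFB2 at 10.02 and LIF at 9.03. IL2, the growth factor of T cells, measured 3.49. In complement and coagulation, 13 of 25 genes were above. CD55, which protects cells from complement, measured 13.08, 13.04 and 13.04, and the plasminogen activator PLAT 12.79.

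Genes of the matrix and of its receptors and proteases were above in 47 of 82 cases, or 57.3%, with a median of 4.81. Integrins were above in 12 of 26 cases. ITGA6 and ITGB4, which pair in hemidesmosomes, measured 12.48 and 11.47, and ITGA3 and ITGB1 measured 11.98 and 11.54. Laminins and collagens were above in 14 of 24 cases, led by LAMC1 at 11.66 and LAMB3 at 10.62, and in 8 at the 99th percentile of olfactory receptors. Proteases and their inhibitors were above in 21 of 32 cases, with the inhibitor SPINT2 at 11.81 first and its relative SPINT1 at 10.83. Of 19 S100 calcium-binding proteins 13 were above: S100A10 at 13.51 was followed by S100A16 at 12.10, and S100A8 measured 3.54.

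HOX genes set position along the body axis. Of 10 HOXB genes 5 were above, led by HOXB7 at 8.08 and HOXB6 at 6.67, and 2 at the 99th percentile of olfactory receptors. HOXC and HOXD genes had 1 of 9 above each, HOXC12 at 5.86 and HOXD4 at 5.27. A second HOXC gene passed without replicate 1, and HOXD4 did not pass at the 99th percentile. SOX factors were above in 13 of 19 cases, led by SOX9 at 9.57, SOX4 at 9.08 and SOX21 at 8.14. Nuclear receptors, which bind hormones and lipids, were above in 22 of 40 cases. The clock receptor NR1D2 led at 10.15, the glucocorticoid receptor NR3C1 measured 9.29 and the vitamin D receptor VDR 9.21.

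Classes of non-coding genes differed in how often they were above. Long non-coding RNAs were above in 617 of 3564 cases, or 17.3%, and microRNA genes in 222 of 1082, or 20.5%. Small nucleolar RNAs were above in 197 of 313 cases, or 62.9%, close to the 64.6% of protein-coding genes, and small nuclear RNAs in 14 of 18. Among the small nucleolar RNAs the families differed. SNORD116 genes were above in 12 of 19 cases, up to 12.96 for SNORD116-15, whereas none of 25 SNORD115 genes was, the highest being 4.45. Both lie in the same imprinted region of chromosome 15. The SNORD113 and SNORD114 genes of 14q32 were above in 0 of 40 cases. RNase P RNA, RPPH1, which trims transfer RNAs, measured 12.28, and telomerase RNA, TERC, 10.39. Among large families of proteins, zinc finger genes with ZNF symbols were above in 425 of 562 cases and solute carriers in 230 of 408, up to 12.47 for the amino acid transporter SLC7A5. The families and genes of this paragraph were chosen after their values were seen.

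Mature microRNAs are cut from precursors by DROSHA and Dicer and recognise messenger RNAs through their seed, bases 2 to 8. Of 18 measured genes of this processing 17 were above, with DROSHA at 11.19, and LIN28A, a blocker of let-7 maturation, was the exception at 3.82. Of the microRNA genes, 3 exceeded 10. The mature sequences below, from RefSeq on GRCh38.p14, have the seed in capitals and belong to those 3 genes and to 2 more that the text takes up.
hsa-miR-4750-5p (chr19:49888177-49888198, plus strand): cUCGGGCGgaggugguugagug
hsa-miR-3064-5p (chr17:64500817-64500837, minus strand): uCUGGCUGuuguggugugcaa
hsa-miR-3064-3p (chr17:64500775-64500797, minus strand): uUGCCACAcugcaacaccuuaca
hsa-miR-4521 (chr17:8186948-8186969, plus strand): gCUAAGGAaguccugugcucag
hsa-miR-614 (chr12:12915882-12915904, plus strand): gAACGCCUguucuugccaggugg
hsa-miR-375-3p (chr2:219001648-219001669, minus strand): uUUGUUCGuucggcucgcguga

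MIR4750 measured 12.67, 12.83 and 12.44, MIR3064 10.87, 10.62 and 10.88, and MIR4521 had a mean of 10.22. MIR614 measured 9.22 and MIR375, a microRNA of endocrine and epithelial cells, 7.80. Of the 30 microRNA genes with the highest levels, 27 had 33 mature sequences in the table, and no 2 of these shared a seed. Of the 30 genes, 20 lay inside another gene of the annotation. MIR3064 lies inside DDX5, an RNA helicase gene with a level of 11.95, and MIR614 inside GPRC5A at 11.81. MIR4750 lies inside TBC1D17, whose level of 7.87 was lower than its own. The labels describe total RNA made into labelled copies, so signal at these probe sets cannot be told apart from that of precursors or of the surrounding transcripts.

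Genes above the silent level tended to be neighbours. In RefSeq order, a protein-coding gene above the level was followed by another in 71.1% of cases, where 64.7% of all were above. A gene not above was followed by another in 47.0% of cases, where 35.3% of all were not above. These shares include the clustered olfactory receptors, most of which are not above by the rule that sets the level. How much of the excess comes from them was not tested. The longest stretch above held 57 protein-coding genes, from the kinase CDK9 to NCS1 on chromosome 9, LCN2 among them. A stretch of 33 on chromosome 11 ran from IFITM2 to MUC6 and included TALDO1. The longest stretch not above held 55 genes from OR4A47 to APLNR on chromosome 11, of which 49 were olfactory receptors, the genes that set the level. Without olfactory receptors, 27 genes from UGT2B17 to JCHAIN on chromosome 4, with the milk caseins and salivary proteins, and 21 from KRT222 to KRTAP2-2 on chromosome 17, with skin and hair keratins, were not above. These stretches were found by searching the order, and related genes that lie side by side can share probe sequence as well as regulation; that part was not tested.

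The spread between the 3 arrays was small for most genes. The median SD was 0.07 over all genes and 0.08 over those above the silent level. It was 0.05 in the highest 10% of genes above, and at most 0.12 in any of 10 equal groups by level. Of 12880 genes above, 1104, or 8.57%, had an SD over 0.2, 297 over 0.3 and 41 over 0.5.

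Of the 12 genes with the largest SD among those above, 4 were small RNA genes and 6 were protein-coding. SCARNA3, a small Cajal body RNA that guides the modification of spliceosomal RNA, measured 7.01, 8.65 and 6.27 (SD 1.22). SNORD72 measured 7.38, 7.78 and 6.01, and SNORA2A 7.63, 8.89 and 9.21. Replicate 2 was highest for SCARNA3 and SNORD72 and replicate 3 for SNORA2A. Among protein-coding genes of the group, the splicing protein HNRNPA3 measured 6.22, 7.01 and 5.54 and the histone H3C10 7.16, 7.99 and 6.57. The others were POM121L8P, TSBP1-AS1, KRTAP19-5, ZBED1, ZNF417, MIR4522 and RGPD3.

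Over all 229 small nucleolar, nuclear and Cajal body RNA genes above the silent level, the median SD was 0.16, against 0.08 for protein-coding genes above. Replicate 2 gave the highest of the 3 values for 127 of the 229, or 55.5%. For protein-coding genes replicate 2 was highest in 32.3% of cases. The median deviation of the small RNAs from their own means was 0.07 on replicate 2 and -0.06 on replicate 3. All RNA integrity numbers were equal, as given at the start, and what else differed between the cultures was not tested.

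A test per gene, made on the same arrays with the same silent levels, gave nearly the same set as the position of the arrays. With limma, each gene's difference from the silent level of its array was tested against 0 in 1 direction, and 12686 genes, or 53%, had a Benjamini-Hochberg adjusted p below 0.05 over all genes. Of these, 12629 were among the 12880 genes above the silent level on all arrays, which is 99.6% of the genes called by limma and 98.1% of the genes above. Because values and silent levels were shared, this overlap is no independent check of the calls. The silent level entered the test as a fixed value, so the adjusted p does not carry its uncertainty.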

How the data were processed

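Expression was read from the authors' deposited table of log2 values, 1 per probe set and array, for the 3 control arrays. They came from RMA, per the submitters' processing notes, a method that corrects background, gives all arrays 1 distribution and summarises the probes of a set. Its version, the array model and the genome build are not given in the sources used here. The values carry no counts, and precision is limited by having 3 arrays.

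The table has 24733 probe sets. The platform annotation names 1 gene for 23934 of them, several for 0 and none for 799. For 3 symbols with 2 probe sets the higher mean was kept, which left 23931 genes. Of these, 23893 matched RefSeq's annotation of GRCh38.p14, the source of gene types, order, promoters and microRNA sequences. No genes were filtered out. Levels were averaged over the arrays with Python 3.11.15 and pandas 2.3.3, and limma 3.58.1 (R 4.3.3; lmFit, eBayes, 1-sided) served as an alternative to the position of the arrays. The steps were tested on simulated data.

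The members and the gene lists were chosen with earlier results of these data known. Genes named are the 25 highest, the 12 with the largest SD, the 6 highest and 3 lowest of each list (all members of lists of at most 12), the 6 highest olfactory receptors, the 3 genes on either side of the silent level and the identity genes. Families, microRNA genes, promoters, stretches of neighbours and other names outside this rule were chosen after their values were seen. Alternatives were other silent levels and reference genes, other numbers of arrays, renormalization, the other probe set of a gene, and leaving out each array. Some results are not reported here.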

Additional observations from a re-analysis of the deposited data

How the results depend on the processing

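The count of 12880 genes above the silent level was 14539 at the 90th and 10237 at the 99th percentile of olfactory receptors, and 10575 with the 5 other silent families as reference. It was 3513 with the single highest olfactory receptor, OR4C3, as the level. Leaving out 1 array gave 12923 to 13179, requiring 2 arrays 13403 and limma 12686. With protein-coding olfactory receptors alone, an alternative chosen after seeing the data, it was 13087. Of 1008 list counts over all alternatives, 890 stayed within 1.5 times the reported count, and of the other 118, 57 came with OR4C3 as the level, 18 with the 99th percentile and 16 with the other families. Levels of the 50 named genes moved by less than 1 SD in 400 of 400 cases, but these cases could hardly have come out otherwise. The choice of olfactory receptors does not enter a gene's level, and the arrays already shared their distribution before renormalization. Another probe set exists for few genes. Leaving out 1 array cannot move a gene's mean by as much as 1 SD of its own values. The count is therefore no measure of how stable the levels are. Of the 25 highest genes at least 24 stayed among them when an array was left out. Genes close to the silent level change sides with its choice. No paired analysis was possible because 1 group is described and no groups are compared.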

Other observations

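Some probe sets of genes known from other tissues gave a signal far above that of their family. IGLV2-14, a variable segment of the immunoglobulin light chain, measured 11.26, 11.46 and 11.44, while 29 of 163 variable segments lay above the silent level. KRTAP5-7, a keratin-associated protein of hair, measured 9.47, 9.45 and 9.77, while the 85 KRTAP genes had a median of 3.90. COX8C, a respiratory chain subunit of the testis, measured 8.47, 8.39 and 8.36. These genes were chosen after their values were seen, and what their probes bind was not tested.

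Probe sets without a gene symbol were left out of the order of genes. Of these 799, 465 lay above the silent level on all 3 control arrays (58.2%), with a median of 5.64 and a highest value of 13.46, and 102 exceeded 10.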
